A study of Homo sapiens with 58 samples.

Results

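The 39 genes described here act at the G1/S transition and in DNA replication. They are MCM2 to MCM7, MCM10, PCNA, CDC6, CDC45, CDT1, GINS1, GINS2, GINS3, ORC1, ORC6, POLA1, POLA2, POLD1, POLD3, POLE2, PRIM1, RFC2 to RFC5, RPA2, RRM1, RRM2, TYMS, TK1, FEN1, LIG1, E2F1, E2F2, E2F8, SLBP, UHRF1 and CHAF1A. They were chosen by name, and each was represented by its probe set with a single gene symbol and the highest mean over all arrays. All 39 were measured, among 19775 genes in all, and 22 of them had more than 1 probe set to choose from.

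HaCaT cells, a spontaneously immortalized human keratinocyte line, gave the RNA for 58 arrays (Affymetrix U133 Plus 2.0). There were 5 lines, namely HaCaT without a transgene, HaCaT-vector (mock), HaCaT-EGFR, HaCaT-p65 (RELA) and HaCaT-HRAS, which carries HRAS-VAL12D. Each line had 3 arrays in serum, labelled 0 h. Per the study's methods, cells spent a period in serum-free medium before a ligand was added, so 4 h and 8 h are times of treatment and not lengths of starvation. HaCaT-EGFR was also starved of serum with no ligand (5 arrays at 4 h, 2 at 8 h), starved with EGF (5 at 4 h, 2 at 8 h), or in serum labelled 4 h or 8 h (1 each). The sample titles and the study's methods do not say whether these last cells stayed in serum or received it after starvation. Gefitinib, an inhibitor of the EGFR kinase, was added with EGF at 4 h and 8 h and in serum at 4 h and 8 h (1 array each). HaCaT-vector was starved without ligand (4 arrays), with EGF (4) or with TNF-α (3), all at 4 h. LY294002, an inhibitor of PI3K, and U1026, labelled a MEK inhibitor, were each added with EGF for 4 h in HaCaT-EGFR and in HaCaT-vector (1 array each). HaCaT-p65 was starved without ligand (2 arrays at 4 h, 1 at 8 h) or with TNF-α (4 at 4 h, 1 at 8 h). The study's sample sheet describes one of these 4 arrays, TNF-α replicate 3 of batch 3, as a control at 4 h. Its mean of 12 NF-kB response genes was 8.25, beside 8.28 and 7.98 on the starved arrays and 9.18, 9.18 and 9.38 on the other 3, which goes against the label. It is called the array labelled TNF-α replicate 3 here, and values are given with it and without it. Whether each modified line was a clone or a pool, and which promoter drove its transgene, is not given in the sources used here. HaCaT cells carry mutant p53 and have lost p16, so the RB pathway that controls these genes lacks one of its normal inhibitors in every group. Some sample titles carry a prefix, such as CH, whose meaning is not given. Within batch 3 it marks replicate 2 of HaCaT-EGFR, starved and with EGF, and not replicate 3. Nothing in the labels tells separate cultures from repeated arrays, so the p-values measure the spread between these arrays, which may be technical.

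Cells license replication origins in G1, when ORC, CDC6 and CDT1 load the MCM2 to MCM7 helicase on DNA. CDC45, the GINS complex and MCM10 then turn the helicase on, DNA polymerase α and primase start each strand, and polymerases δ and ε, held by the PCNA clamp, copy it. E2F factors, released from RB when cyclin-dependent kinases are active, drive transcription of most of these genes, while E2F8 represses the same targets later in S phase. In keratinocytes, growth factors acting through EGFR support proliferation, and starved cells tend to leave the cycle. In an unsynchronized culture, fewer cells in S phase and less RNA of these genes per cell cannot be told apart.

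Promoter sequence is shown for 4 of the members with values by array below. They were taken because their window matched letters that E2F proteins are known to read, so the match itself selected them. POLD3, GINS2, PRIM1, PCNA, CDT1 and RFC5 passed in more comparisons than MCM2 and CDC6 but had no match or no window. From RefSeq (GRCh38.p14), a window of 250 bases before to 50 after the start was found for 34 of the 39 genes, and not for MCM4, MCM5, POLD3, RPA2 and E2F8. The letters TTTCGCGC or TTTGGCGC, on either strand, were present in 12 of these 34 (35.3%) and in 382 of 27305 genes with a window (1.4%). The 12 were CDC6, E2F1, E2F2, GINS1, MCM2, MCM3, MCM6, MCM7, POLA1, POLA2, POLE2 and UHRF1. Below, the match is in capitals and the sequence runs 5′ to 3′ along the gene's strand. E2F2 is at chr1:23531234-23531483 on the minus strand, with its match from base -42 to -35 before the start. E2F1 is at chr20:33686386-33686635 on the minus strand, with its match from -20 to -13. The stretches for E2F2 and E2F1 lie upstream of the annotated start, outside the transcript. MCM2 is at chr3:127598404-127598433 on the plus strand, where TTTCGCGC on both strands overlaps from base 3 to 14 after the start. CDC6 is at chr17:40287875-40287904 on the plus strand, with its match from base 8 to 15.
E2F2: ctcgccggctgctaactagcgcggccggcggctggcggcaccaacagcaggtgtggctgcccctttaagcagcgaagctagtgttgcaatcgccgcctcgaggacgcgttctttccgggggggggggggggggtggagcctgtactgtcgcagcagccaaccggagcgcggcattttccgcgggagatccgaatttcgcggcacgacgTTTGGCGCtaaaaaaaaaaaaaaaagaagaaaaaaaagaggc
E2F1: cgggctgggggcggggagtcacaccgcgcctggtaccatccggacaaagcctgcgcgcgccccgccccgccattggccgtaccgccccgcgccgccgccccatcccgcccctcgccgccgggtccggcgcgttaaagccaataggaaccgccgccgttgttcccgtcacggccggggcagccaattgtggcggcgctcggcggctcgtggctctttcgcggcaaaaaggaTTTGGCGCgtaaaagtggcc
MCM2: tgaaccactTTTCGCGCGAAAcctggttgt
CDC6: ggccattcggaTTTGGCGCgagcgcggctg
A match describes these letters alone and is not evidence of a bound site.

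All values are log2 expression as the authors deposited them. A difference is given on the log2 scale with its standard error (SE) and limma's p-value, Benjamini-Hochberg adjusted over all 19775 genes at a threshold of 0.05, from a fit of 26 groups and 6 labelled batches. Beside each count of members that passed stands the share of all genes that passed in that direction. Array quality differed in places. The 3′ minus 5′ difference of the actin control probes was 5.70 on one array of HaCaT-p65 with TNF-α at 4 h and 4.55 to 4.84 on the other 3, and 5.86 on one array of starved HaCaT-EGFR at 8 h, which also had the highest mean of the members (8.81). The part of these differences in the results was not tested. Keratinocyte markers were high on all arrays (KRT5 10.84 to 13.13 and KRT14 10.72 to 13.45), while the leukocyte marker PTPRC lay between 3.42 and 4.48. The endothelial marker CDH5 had a median of 4.20 and reached 8.73, in HaCaT-HRAS. Batch 1 held only the 15 arrays in serum at 0 h, and the authors' correction sets HaCaT-EGFR in serum equal between batches 1 and 6, so no difference was taken between batch 1 and the others.

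The mean of the 39 members on an array lay between 7.69 and 8.81 over the 58 arrays. RRM2, the small subunit of ribonucleotide reductase, had the highest mean of its probe set (11.27, percentile 97.5 among all genes) and POLD1, the catalytic subunit of polymerase δ, the lowest (5.21, percentile 39.3). Probe sets differ in brightness, so these are not levels per length and the order is not one of transcripts. Most members varied together. The SD over arrays ran from 0.125 for SLBP, which binds histone mRNA, to 0.552 for E2F2, with a median of 0.274 against 0.255 over all genes. The correlation of a member with the mean of the other 38 had a median of 0.687 over the 58 arrays and was over 0.5 for 36 of 39. It was highest for MCM10 (0.884) and lowest for RFC5, a clamp loader subunit (-0.27). The RFC5 probe set used correlated with the other probe sets of that gene by 0.12 and 0.19, so its values describe that probe set. Among the 32 arrays that share both group and batch with another, deviations from that group's batch mean gave a median of 0.816, from -0.603 for RFC5 to 0.965 for POLE2, a subunit of polymerase ε. The arrays share medium, line and batch, and no such correlation was computed for other genes, so these correlations are descriptions.

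**Figure D1:**
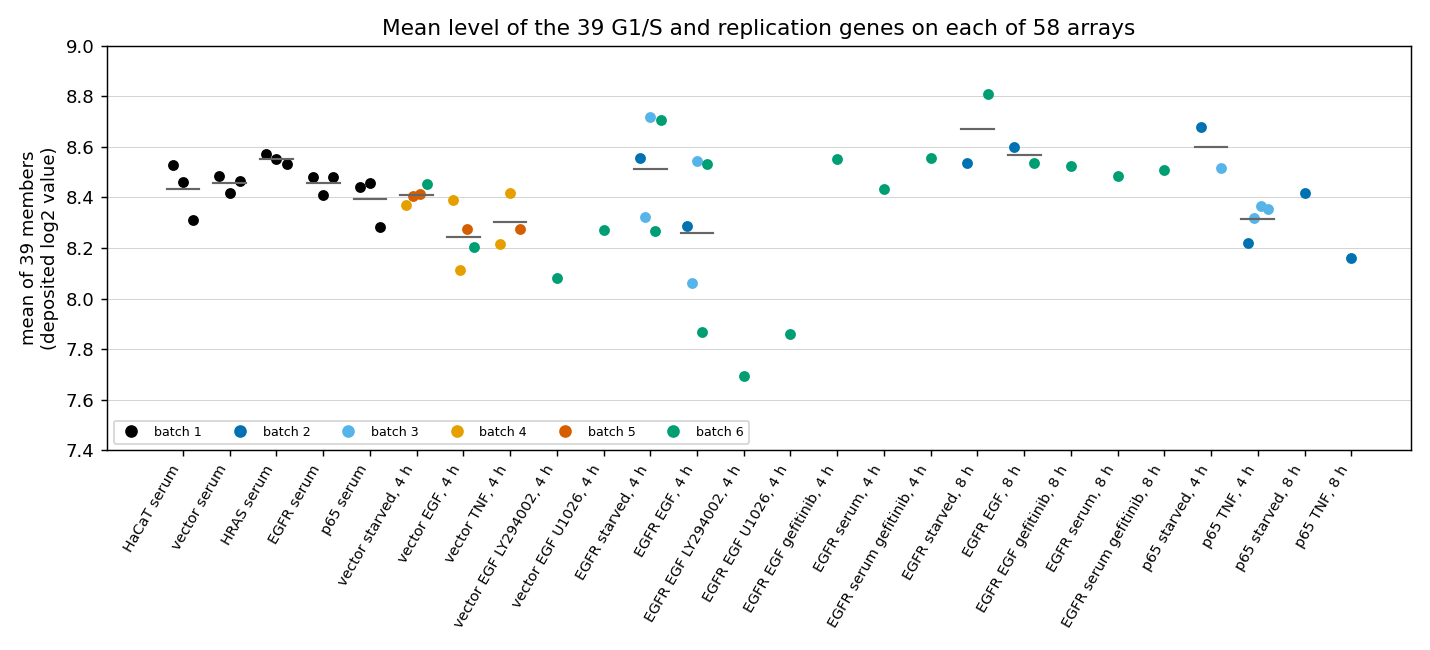
Mean log2 expression of the 39 members on each array (vertical axis) by group (horizontal axis), with points coloured by labelled batch and a grey bar at the mean of groups with more than 1 array. The arrays lie between 7.69 and 8.81, and the 5 arrays of HaCaT-EGFR with EGF at 4 h spread from 7.87 to 8.54.

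In HaCaT-HRAS in serum, PCNA, PRIM1 and CDT1 were higher than in HaCaT-vector and no member passed as lower. The 3 of 39 higher stand against 9.38% of all genes higher in this comparison, and the 0 lower against 8.41%. The median difference over the members was 0.11 (-0.04 over all genes), with 25 of 39 above 0. Of the 39 members 8 had an unadjusted p under 0.05, against 5255 of all 19775 genes. PCNA, the sliding clamp, read 9.56, 9.68 and 9.60 in HaCaT-HRAS and 9.18, 9.12 and 9.15 in HaCaT-vector. PRIM1, the catalytic subunit of primase, read 8.86, 8.90 and 8.87 against 8.50, 8.47 and 8.34. CDT1, which brings the MCM helicase to origins, read 7.74, 7.92 and 7.71 against 7.26, 7.29 and 7.56. For all 3 genes every HaCaT-HRAS array lay above every HaCaT-vector array. PCNA differed by 0.47 (SE 0.154, adjusted p = 0.0315, 1.38-fold). PRIM1 differed by 0.44 (SE 0.146, adjusted p = 0.0321). CDT1 differed by 0.42 (SE 0.141, adjusted p = 0.0328), and its second probe set by 0.23 (SE 0.189). Without any one of the 6 arrays, PCNA and PRIM1 no longer passed, and CDT1 was lost without 4 of the 6. The largest members that did not pass were GINS1 (0.52), MCM4 (0.52) and E2F1 (0.42). The 5 helicase activators were all above 0 with a median of 0.24, whereas 2 of the 6 clamp, clamp loader and RPA genes were. With the replicate number as a block, which reads same-numbered arrays as pairs, 6 members and 3877 of all genes passed (3518 without the block). Whether the number marks true pairs is not known. PCNA, CDT1, GINS1, POLE2 and PRIM1 were higher and POLD3 lower. With arrays centred on their median 0 members passed, and with conditions pooled over time 1, PCNA. Cell type markers moved in the same comparison. Of 9 keratinocyte markers 4 were lower, KRT14 by -2.33, and the array means of the list were 10.13 to 10.39 in HaCaT-HRAS against 10.83 to 11.03 in HaCaT-vector. Of 4 endothelial markers CDH5 was higher, with 8.55 to 8.73 against 4.34 to 4.40, and the other 3 did not pass. Their part in the members' result was not tested.

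Around these genes, CCNE1, the cyclin that activates CDK2 at G1/S, was 2.23 higher in HaCaT-HRAS (SE 0.178, adjusted p = 1.2e-11). CCNE1 was also higher in HaCaT-EGFR by 0.67 and in HaCaT-p65 by 1.11, and it was lower in HaCaT-vector than in HaCaT by 0.99 (log2 difference -0.99). Every line thus had more CCNE1 than HaCaT-vector, HaCaT without a transgene included. Of the 22 G1/S regulators, 2 were higher in HaCaT-HRAS and 2 lower, and of 28 G2 and mitosis genes 1 was higher and 4 lower. SESN3, a growth arrest gene induced by FOXO factors, was 1.46 higher. Of 35 other replication genes only PRIM2, the partner of PRIM1 in primase, passed, and it was lower (-0.45).

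In HaCaT-EGFR in serum, E2F1 was higher than in HaCaT-vector and GINS2 and POLD3 were lower. The 1 of 39 higher stands against 3.83% of all genes and the 2 lower against 3.73%. The members' median was 0.01, with 20 of 39 above 0 and 5 with an unadjusted p under 0.05 (3164 of all 19775 genes). GINS2, a subunit of the GINS complex, read 7.91, 7.71 and 7.80 in HaCaT-EGFR and 8.53, 8.60 and 8.37 in HaCaT-vector. E2F1, an activating E2F, read 7.06, 6.95 and 7.11 against 6.32, 6.39 and 6.36. POLD3, a subunit of polymerase δ, read 8.80, 8.88 and 8.90 against 9.22, 9.26 and 9.19. The 2 lines did not overlap for any of the 3 genes. GINS2 differed by -0.69 (SE 0.181, adjusted p = 0.0113). E2F1 differed by 0.68 (SE 0.190, adjusted p = 0.0188). POLD3 differed by -0.36 (SE 0.103, adjusted p = 0.0247). POLD3 was lost without any one of the 6 arrays, E2F1 without 4 and GINS2 without 2. The second probe set of POLD3 differed by -0.35 and that of E2F1 by 0.64, while the other probe sets of GINS2 differed by 0.10 and -0.55. Against HaCaT in place of HaCaT-vector none of the 3 passed. E2F1 then differed by 0.25, since HaCaT itself read 6.67, 6.92 and 6.76. RBL1, an RB family member that binds repressive E2F factors, was 0.71 higher in HaCaT-EGFR, and NASP, a histone chaperone, was -0.93 from HaCaT-vector.

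In HaCaT-p65 in serum no member passed, against 3.81% of all genes higher and 2.94% lower. The members' median was -0.06, 10 of 39 lay above 0 and 7 had an unadjusted p under 0.05 (3099 of all 19775 genes). The largest differences were those of E2F8 (-0.63), GINS2 (-0.56) and E2F1 (0.56). GINS2 read 8.09, 8.00 and 7.73 in HaCaT-p65, below every HaCaT-vector array, and E2F1 read 6.86, 6.84 and 7.04, above every HaCaT-vector array. Neither passed after adjustment. The 0 depended on the fit, since 4 members passed with no batch term and 3 over genes with a mean of at least 5. Between HaCaT-vector and HaCaT, both without a gene of interest, no member passed, against 1.08% higher and 1.5% lower over all genes. The median was 0.04 with 22 of 39 above 0, and the largest difference was E2F1 at -0.43 (adjusted p = 0.371). HaCaT read higher than HaCaT-vector in all 3 of its arrays for E2F1.

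Starved with no ligand at 4 h, HaCaT-EGFR again had more E2F1 than HaCaT-vector and had less RFC5. The 1 higher stands against 2.98% of all genes and the 1 lower against 3.34%, with a members' median of 0.07 (-0.02 over all genes) and 30 of 39 above 0. E2F1 read 7.16, 7.21, 7.67, 7.12 and 7.53 in HaCaT-EGFR and 6.51, 6.28, 6.29 and 6.40 in HaCaT-vector. RFC5 read 9.79, 10.07, 9.81, 10.07 and 9.82 against 10.29, 10.38, 10.29 and 10.32. The lines did not overlap for either gene. E2F1 differed by 0.96 (SE 0.226, adjusted p = 0.00569, 1.94-fold), and its second probe set by 0.88. RFC5 differed by -0.41 (SE 0.105, adjusted p = 0.0110), and its other probe sets by -0.12 and -0.17. The 2 lines share only batch 6, and both calls were lost without the single HaCaT-vector array of that batch. High E2F1 was not particular to HaCaT-EGFR. Starved HaCaT-p65 at 4 h, in other batches than HaCaT-vector, read 7.45 and 7.05, above every HaCaT-vector array. There was no starved array of HaCaT without a transgene. MCM4 (0.81) and CDC45 (0.48) had large differences that did not pass. SESN3 (-2.48) and CDKN1A (-1.15), which encodes the CDK inhibitor p21, were lower in HaCaT-EGFR.

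With EGF for 4 h, E2F2 and POLD3 were lower in starved HaCaT-EGFR, and no other member passed. The 2 of 39 lower stand against 2.56% of all genes lower, and the 0 higher against 2.78%. The members' median was -0.25 against -0.01 over all genes, and 2 of 39 lay above 0. An unadjusted p under 0.05 was reached by 17 of 39, against 3358 of all 19775 genes. Both the median and the count moved with single arrays of batch 6. Without EGF replicate 1 the median was -0.13 with 1 member passed, and without EGF replicate 2 it was -0.33 with 6. E2F2, an activating E2F, read 8.46, 8.32, 8.48, 8.53 and 8.52 when starved and 7.80, 7.46, 7.75, 7.15 and 8.07 with EGF. Every EGF array lay below every starved array. E2F2 differed by -0.82 (SE 0.139, adjusted p = 0.000289, 1.76-fold) and passed without any one of the 10 arrays (-0.94 to -0.67). POLD3 read 8.84, 8.81, 9.08, 8.84 and 9.10 when starved and 8.66, 8.50, 8.71, 8.46 and 8.88 with EGF, so the groups overlapped. POLD3 differed by -0.29 (SE 0.0799, adjusted p = 0.0244), its second probe set by -0.33, and it was lost without 5 of the 10 arrays.

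The 3 largest differences that did not pass were those of E2F8 (-0.64), ORC1, the largest ORC subunit (-0.46), and E2F1 (-0.43). E2F8 read 6.41, 5.98, 5.97, 5.44 and 6.20 when starved and 5.38, 5.20, 5.51, 5.01 and 5.71 with EGF. Its mean was lower with EGF in each batch, but the groups overlapped, since 5.71 with EGF lay above 5.44 when starved. MCM2, a helicase subunit, read 8.86, 8.44, 8.99, 8.32 and 8.96 against 8.44, 8.04, 8.87, 7.87 and 8.74. CDC6, the helicase loader, read 7.92, 7.46, 8.26, 7.45 and 8.15 against 7.79, 7.35, 7.65, 6.97 and 8.01. For MCM2 and CDC6 the groups overlapped, since arrays of 1 group differed from each other by more than EGF from starved. By role, the median was -0.64 for the 3 E2F factors, -0.30 for the 10 licensing genes, -0.26 for the 6 polymerase and primase genes, -0.24 for the 6 clamp, clamp loader and RPA genes, -0.18 for the 5 helicase activators and -0.18 for the 4 nucleotide supply genes. Within batches 2, 3 and 6 the median over all members was -0.22, -0.21 and -0.27. Arrays with the same batch and replicate number, set against each other, gave medians of -0.22, -0.25, -0.19, -0.41 and -0.15. The other 4 pairs within a batch ran from -0.78 to 0.27, and 2 of them, in batches 3 and 6, were above 0 (0.25 and 0.27). The actin 3′ minus 5′ difference was 4.39 to 5.46 on the starved arrays and 4.14 to 4.75 on those with EGF, and its part in the result was not tested.

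**Figure D2:**
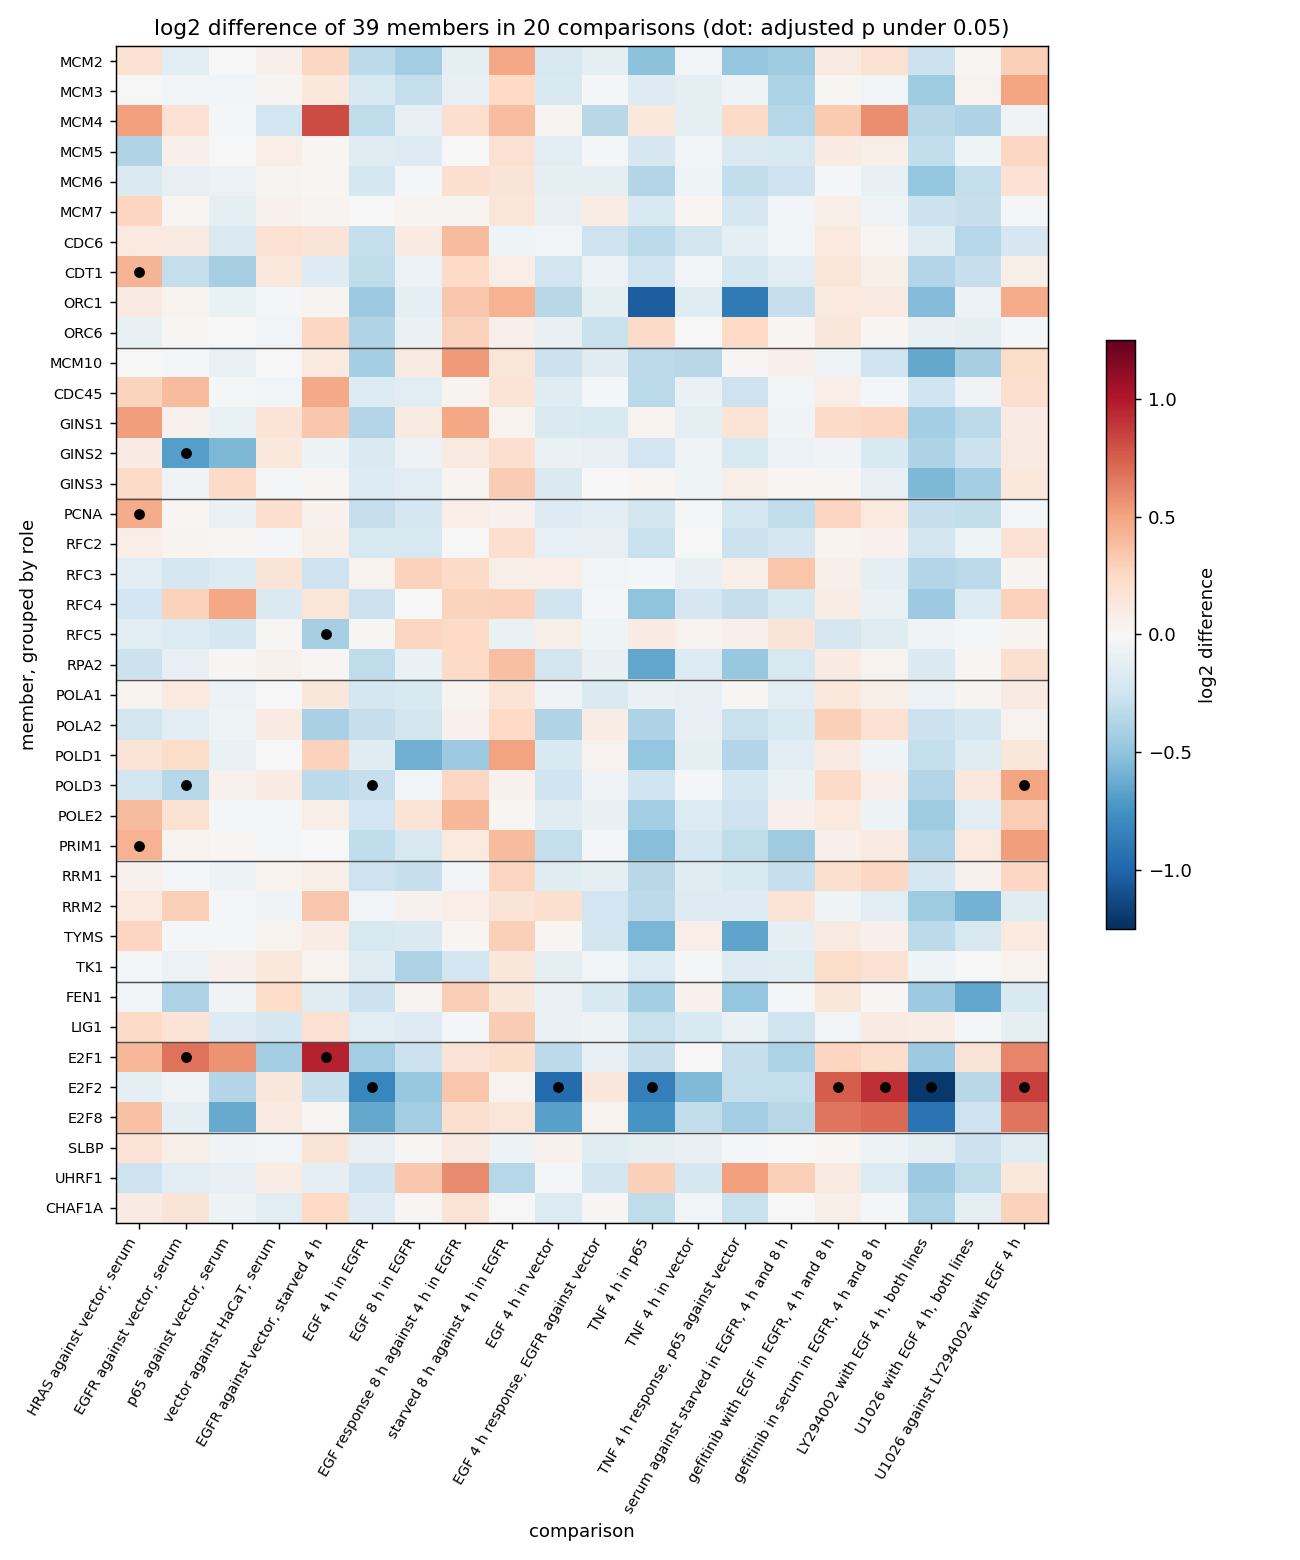
Log2 difference of each of the 39 members (rows) in each of the 20 comparisons (columns), with a black dot where the adjusted p was under 0.05. E2F2 carries 7 of the 17 dots, and the columns of EGF at 4 h in HaCaT-EGFR and of LY294002 lie below 0 for 37 and 38 members.

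The same arrays of HaCaT-EGFR showed other cycle genes beside the members. Of 35 other replication genes, DTL (-0.73), GMNN (-0.49) and CDC7 (-0.48) were lower and none higher. DTL directs destruction of CDT1, GMNN encodes the CDT1 inhibitor geminin, and CDC7 is the kinase that fires origins. Of 28 G2 and mitosis genes, 6 were lower and none higher, 0 of 28 lay above 0, and their median was -0.26. HMMR (-0.52), KIF20A (-0.49), NDC80 (-0.44) and CDC25C (-0.40) were among them. MYC (1.07), CDK6 (0.54) and the cyclin D1 gene CCND1 (0.32) were higher, and SKP2, which targets p27 for destruction, was lower (-0.50). CDKN1B, which encodes p27, was lower (-0.54), as was SESN3 (-0.78). Of 14 MAP kinase response genes 10 were higher, with FOSL1 at 1.58 and SPRY4 at 1.27. MYC and most MAP kinase response genes thus stood above starved cells while the members' median stood below.

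With EGF for 4 h in HaCaT-vector, E2F2 was lower and no other member passed. The 1 lower stands against 0.354% of all genes lower and the 0 higher against 0.571%. The median was -0.15 (-0.01 over all genes) and 6 of 39 lay above 0. Of the members 5 had an unadjusted p under 0.05, against 1830 of all 19775 genes. E2F2 read 8.72, 8.74, 8.80 and 8.75 when starved and 8.02, 7.53, 7.82 and 7.79 with EGF, with no overlap. It differed by -0.96 (SE 0.160, adjusted p = 0.00148, 1.95-fold) and passed without any one of the 8 arrays (-1.04 to -0.88). E2F8 (-0.68), POLA2, the accessory subunit of polymerase α (-0.37), and ORC1 (-0.35) did not pass. E2F8 read 5.78, 5.98, 6.22 and 5.92 when starved and 5.50, 4.89, 5.44 and 5.35 with EGF, again with no overlap. MCM2 read 8.42, 8.41, 8.41 and 8.47 against 8.39, 8.11, 8.23 and 8.19, and CDC6 read 7.54, 7.79, 7.63 and 7.77 against 7.87, 7.49, 7.66 and 7.56. MCM2 lay slightly lower with EGF on every array, whereas CDC6 overlapped. Within batches 4, 5 and 6 the members' medians were -0.11, -0.14 and -0.23. MYC was 0.87 higher and CDC25C -0.49.

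The difference in EGF response between HaCaT-EGFR and HaCaT-vector was tested directly. No member passed, nor did any other gene (0% of all genes higher and 0% lower). No member had an unadjusted p under 0.05, against 369 of all 19775 genes. The largest were MCM4 (-0.35), ORC6 (-0.28) and CDC6 (-0.26), and for E2F2 the 2 lines differed by 0.14 (95% interval -0.29 to 0.58).

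**Figure D3:**
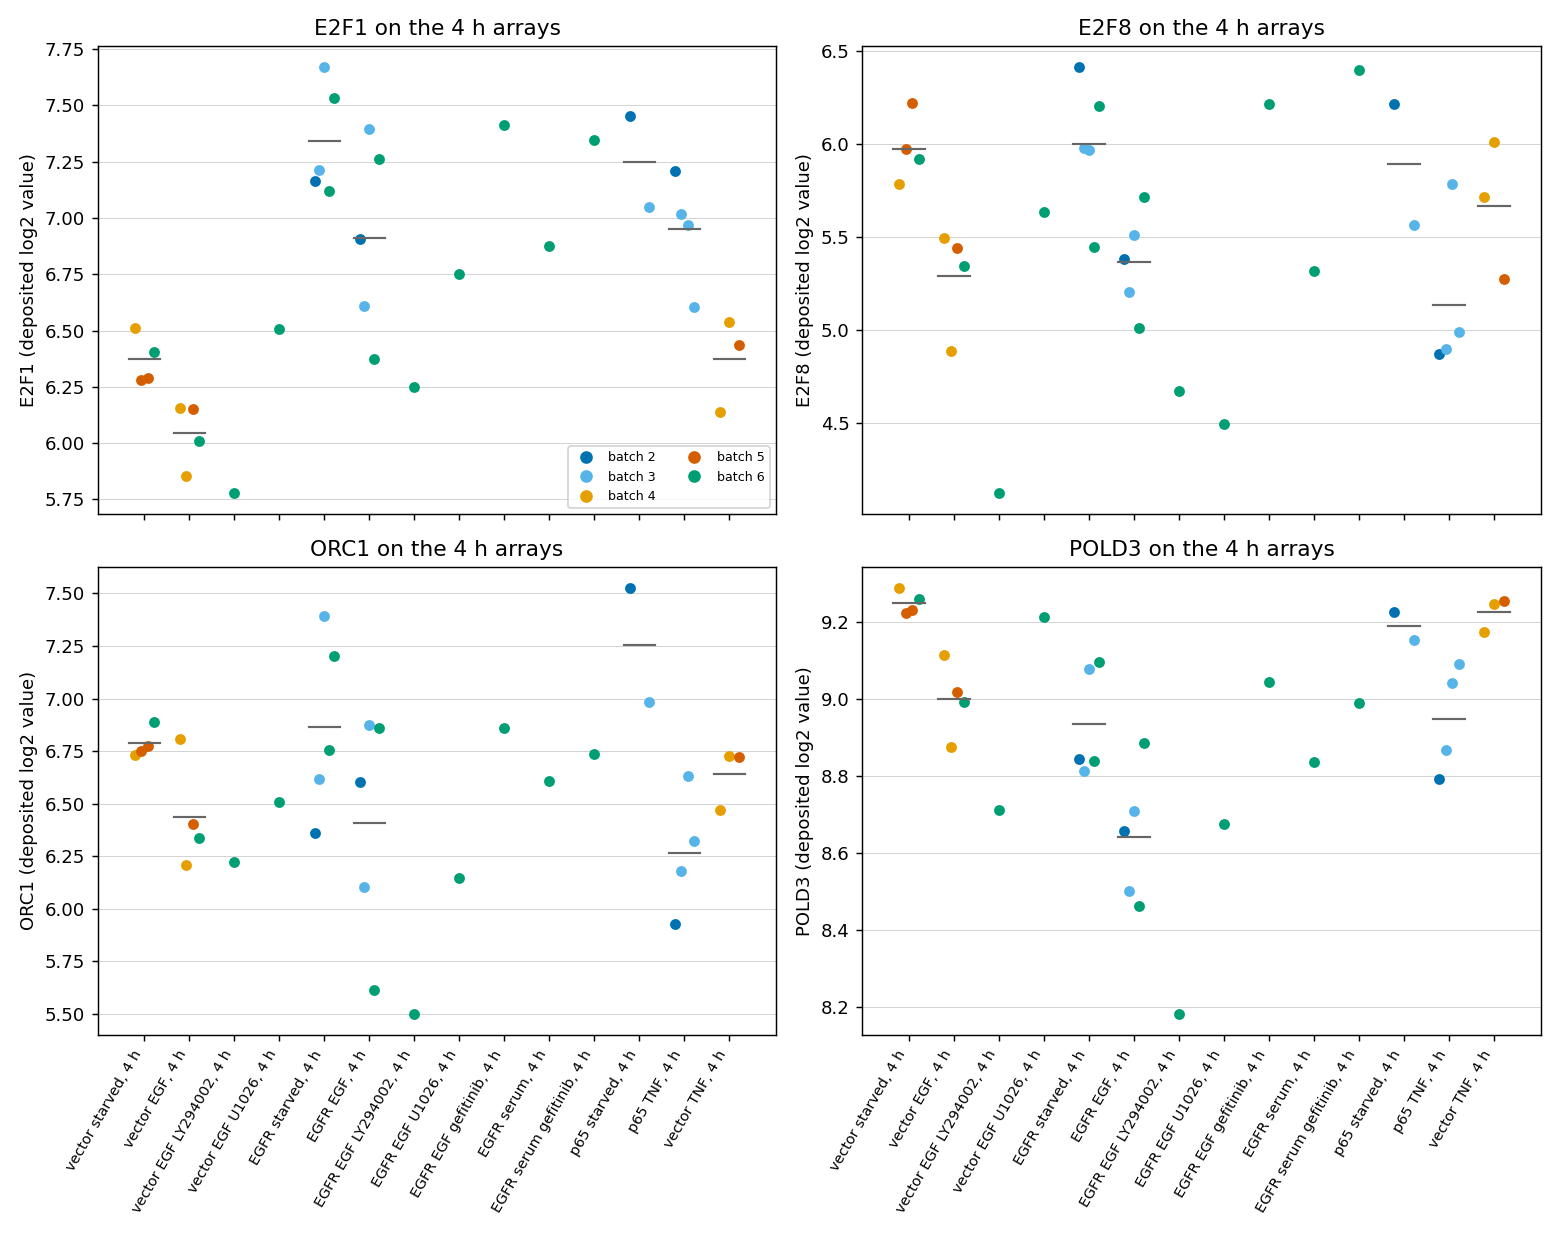
Log2 expression of 4 members on each array at 4 h (vertical axis) by group (horizontal axis), with points coloured by labelled batch and a grey bar at the mean of groups with more than 1 array. The members are E2F1, E2F8, ORC1 and POLD3. E2F1 lay at 7.12 to 7.67 in starved HaCaT-EGFR and at 7.45 and 7.05 in starved HaCaT-p65, against 6.28 to 6.51 in starved HaCaT-vector.

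At 8 h with EGF no member passed in HaCaT-EGFR, with 2 arrays in each group, where 0.0961% of all genes were higher and 0.116% lower. The median was -0.11 with 13 of 39 above 0 and 4 unadjusted p under 0.05 (2018 of all 19775 genes). E2F2 read 8.68 and 8.39 when starved and 8.04 and 8.09 with EGF (-0.47), and MCM2 read 8.83 and 9.51 against 8.88 and 8.59. For E2F2 both EGF arrays lay lower, and for MCM2 the batches went opposite ways. The members' median was 0.06 in batch 2, with 27 of 39 above 0, and -0.30 in batch 6, with 7 above 0. The starved array of batch 6 is the one with an actin 3′ minus 5′ difference of 5.86, and its part in the result was not tested. POLD1 had the largest difference (-0.60), which did not pass.

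When the responses at 8 h and 4 h were tested against each other, no member and no other gene passed (0% higher, 0% lower). The median was 0.16 and 32 of 39 lay above 0. Only UHRF1, which maintains DNA methylation behind the fork, had an unadjusted p under 0.05 (0.59), against 925 of all 19775 genes. Without one array the median ran from -0.05 to 0.26. Between starved arrays at 8 h and at 4 h likewise no member passed (0.00506% of all genes higher and 0.00506% lower). The median was 0.16 (0.05 over all genes) and 34 of 39 lay above 0. The median was -0.05 within batch 2 and 0.37 within batch 6, so it rested on batch 6. For serum against starved medium in HaCaT-EGFR, over 4 h and 8 h, no member passed either (1.31% of all genes higher, 2.13% lower). The median was -0.13, and MCM2 (-0.45), PRIM1 (-0.44) and E2F1 (-0.40) had the largest differences. At 4 h and 8 h apart, with 1 serum array each, the members' medians were -0.03 and -0.24. In the same comparison CDKN1B (-0.60), SESN3 (-1.07) and CDKN2B (-0.81) were lower in serum.

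With TNF-α for 4 h in HaCaT-p65, E2F2 was lower and no other member passed. The 1 lower stands against 0.116% of all genes and the 0 higher against 0.126%. The median was -0.29 (-0.06 over all genes) and 6 of 39 lay above 0. An unadjusted p under 0.05 was reached by 14 of 39, against 2777 of all 19775 genes. E2F2 read 8.68 and 8.22 when starved and 7.32, 7.37, 7.81 and 7.80 with TNF-α, with no overlap. It differed by -0.85 (SE 0.193, adjusted p = 0.0447, 1.81-fold) and was lost without 3 of the 6 arrays, namely starved replicate 1 of batch 2, TNF-α replicate 1 of batch 2 and a TNF-α replicate 2 of batch 3. Without the array labelled TNF-α replicate 3, E2F2 differed by -0.93 (adjusted p = 0.0151). With that array among the starved ones E2F2 differed by -0.73 and no member passed (adjusted p = 0.0527). ORC1 fell further but with a larger error and did not pass (-1.03). ORC1 read 7.53 and 6.98 against 5.93, 6.18, 6.63 and 6.32, with no overlap. With it among the starved ones ORC1 differed by -0.70. Neither E2F8 (-0.74) nor RPA2, a subunit of the single-strand binding protein (-0.65), passed. RPA2 rested on 1 array, since TNF-α replicate 1 of batch 2 read 7.18 and the other 3 read 8.64, 8.64 and 8.76. Without it RPA2 differed by -0.12. The array with the actin 3′ minus 5′ difference of 5.70 is TNF-α replicate 1 of batch 2, where PRIM1 read 8.13 against 8.78 to 8.84 on the other 3, and its part in the result was not tested. Within batch 3 the members' median was -0.19 and within batch 2, which holds that array, -0.40. At 8 h, with 1 array each, the median was -0.26 and E2F2 read 7.17 with TNF-α and 7.80 without.

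With TNF-α for 4 h in HaCaT-vector no member passed (0.87% of all genes higher, 0.0405% lower). The median was -0.09 and 5 of 39 lay above 0. While 1241 of all 19775 genes had an unadjusted p under 0.05, only 1 member did. That was E2F2, which read 8.41, 8.05 and 8.14 with TNF-α, below all 4 starved arrays (-0.55). Of 12 NF-kB response genes, 11 were higher in HaCaT-vector with a median of 1.71. In HaCaT-p65 4 were higher with a median of 0.88, and 8 with a median of 1.12 without the array labelled TNF-α replicate 3. For the TNF-α response between the lines no member passed (0% of all genes higher, 0% lower). The largest differences were those of ORC1 (-0.88), TYMS (-0.66), which makes thymidylate, and UHRF1 (0.52).

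For gefitinib with EGF, over 4 h and 8 h in HaCaT-EGFR, E2F2 was higher and no other member passed. The 1 higher stands against 0.501% of all genes higher and the 0 lower against 0.718%. The median was 0.11 (-0.02 over all genes) with 33 of 39 above 0. E2F2 read 8.57 at 4 h and 8.63 at 8 h with gefitinib, near the starved arrays of the line, against 7.15 and 8.07 at 4 h and 8.09 at 8 h with EGF alone in batch 6, the batch of all inhibitor arrays. It differed by 0.76 (SE 0.193, adjusted p = 0.0390) and was lost without 5 of the 9 arrays, either gefitinib array included. At 4 h alone it differed by 0.92 (adjusted p = 0.176) and at 8 h alone by 0.60 (adjusted p = 0.623). E2F8 (0.67), MCM4 (0.33) and POLA2 (0.30) did not pass. The 2 EGF arrays at 4 h in batch 6 differ from each other, with members' means of 7.87 and 8.53. Against the first the gefitinib array at 4 h had a members' median of 0.66 (38 of 39 above 0), and against the second -0.04 (17 above 0). The first, like the gefitinib array, is labelled replicate 1. In the order of the sample list, by contrast, the gefitinib array comes after the second. Which of the EGF arrays is its pair, if either, was not tested. At 8 h the median was -0.0025 (18 above 0). E2F2 was higher with gefitinib in each of these pairs (1.42, 0.50 and 0.55), whereas the rest of the members depended on which array was the control.

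For gefitinib in serum likewise E2F2 was higher and no other member passed. The 1 higher stands against 0.814% of all genes and the 0 lower against 0.895%. E2F2 read 9.05 at 4 h and 9.15 at 8 h with gefitinib, and 8.13 and 8.25 without. The values with gefitinib were the highest of all 58 arrays for this gene. It differed by 0.91 (SE 0.220, adjusted p = 0.0228, 1.88-fold), by 0.92 at 4 h and 0.91 at 8 h. E2F8 read 6.40 and 6.46 against 5.31 and 6.13 (0.71, not passed), and MCM4 differed by 0.58 (not passed). The members' median was 0.05, with 0.09 at 4 h (28 of 39 above 0) and -0.01 at 8 h (19 above 0). With 1 array per condition and time, the SE comes from the spread of the other groups. Either time alone did not pass (adjusted p = 0.248 at 4 h and 0.395 at 8 h). Beside the members, CDKN1B was higher with gefitinib in both media (0.75 with EGF and 0.80 in serum), MYC was lower (-1.14 and -0.97), and 9 and 12 of 14 MAP kinase response genes were lower. With EGF, CDC25C (0.72) and NUSAP1 (0.42) of the G2 and mitosis genes were higher, and 27 of those 28 genes lay above 0.

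**Figure D4:**
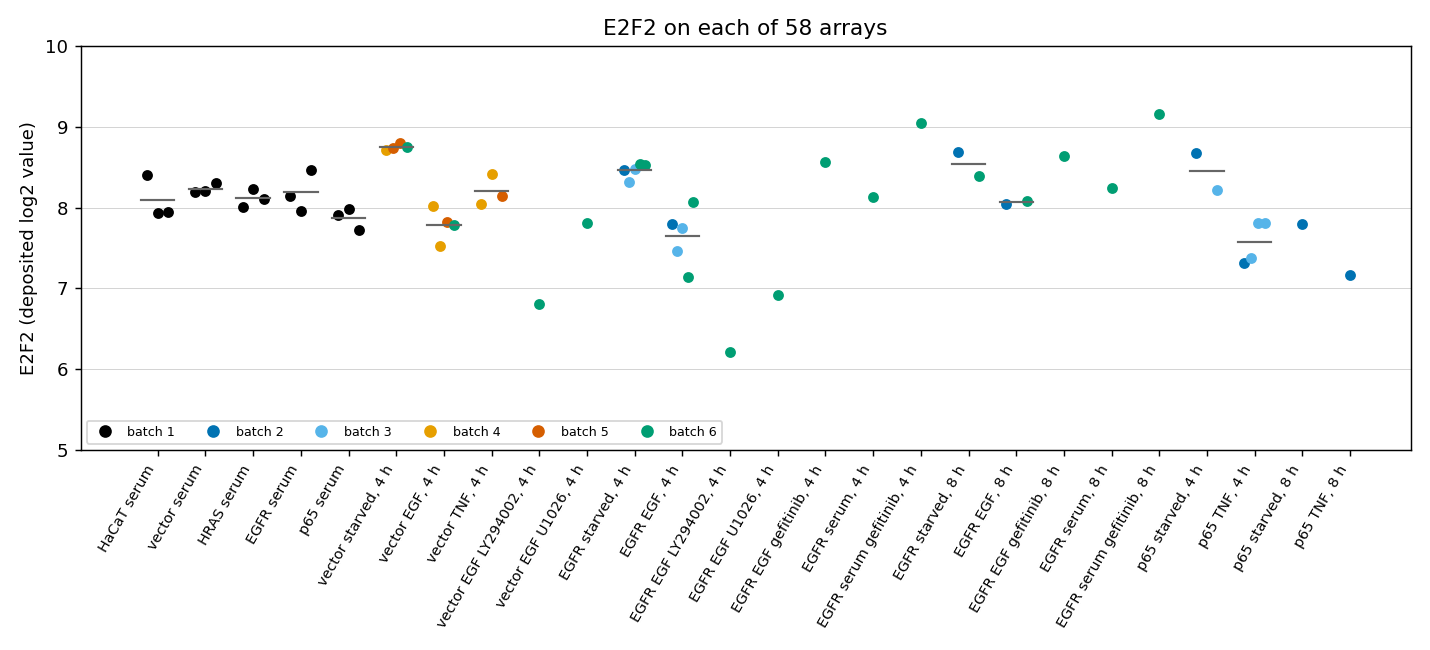
Log2 expression of E2F2 on each array (vertical axis) by group (horizontal axis), with points coloured by labelled batch and a grey bar at the mean of groups with more than 1 array. E2F2 ranged from 6.21 with LY294002 in HaCaT-EGFR to 9.15 with gefitinib in serum, and starved arrays at 4 h lay above those with EGF in both lines.

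For LY294002 with EGF for 4 h, over both lines, E2F2 was lower and no other member passed. The 1 lower stands against 0.319% of all genes and the 0 higher against 0.182%. The median was -0.36 (0.01 over all genes) and 1 of 39 lay above 0. Of the members 15 had an unadjusted p under 0.05, against 1736 of all 19775 genes. E2F2 read 6.21 in HaCaT-EGFR with LY294002, against 7.15 and 8.07 with EGF alone in that batch, and 6.81 in HaCaT-vector against 7.79. These were the 2 lowest values of E2F2 on any array. It differed by -1.21 (SE 0.189, adjusted p = 0.00111, 2.31-fold) and passed without any one of the 9 arrays with EGF alone (-1.32 to -1.11). The call rested on the LY294002 array of HaCaT-EGFR, since HaCaT-EGFR alone gave -1.43 (adjusted p = 0.00937) and HaCaT-vector alone -0.98 (adjusted p = 0.618). E2F8 (-0.93), MCM10 (-0.64) and GINS3 (-0.56) did not pass. The members' median depended on the control array. In HaCaT-EGFR it was -0.13 against EGF replicate 1 (6 of 39 above 0) and -0.85 against EGF replicate 2 (1 above 0). In HaCaT-vector it was -0.08 (13 above 0). The LY294002 arrays are labelled replicate 1, as are the controls that gave -0.13 and -0.08. Whether the number pairs these arrays was not tested. SESN3 (1.55), CDKN1A (1.22) and CCNG2 (1.06), all growth arrest genes, were higher, and TIPIN, which protects stalled forks, was lower (-0.67).

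For U1026 with EGF for 4 h no member passed, against 1.04% of all genes higher and 1.38% lower. The median was -0.17 with 8 of 39 above 0 and 4 unadjusted p under 0.05 (2715 of all 19775 genes). FEN1, the flap nuclease of Okazaki fragments (-0.65), RRM2 (-0.59) and GINS3 (-0.43) had the largest differences. In HaCaT-EGFR the median was 0.01 against EGF replicate 1 (20 above 0) and -0.71 against EGF replicate 2 (1 above 0). In HaCaT-vector it was 0.12 (26 above 0). The U1026 arrays are labelled replicate 1, as are the controls that gave 0.01 and 0.12, and pairing by this number was not tested. E2F2 read 6.91 in HaCaT-EGFR and 7.82 in HaCaT-vector with U1026, within 0.03 of EGF alone in the second line. CDC25A, the phosphatase that activates CDK2 (-0.71), and CCNE1 (-0.75) were lower, and CDKN1A, CCNG2 and CDKN1B were higher.

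Set against LY294002, U1026 arrays had more E2F2 and more POLD3. The 2 higher stand against 0.551% of all genes higher and the 0 lower against 0.501%, with a members' median of 0.14 and 30 of 39 above 0. E2F2 read 6.91 and 7.82 with U1026 and 6.21 and 6.81 with LY294002, so both lines differed the same way (0.86, SE 0.220, adjusted p = 0.0459). POLD3 read 8.68 and 9.21 against 8.18 and 8.71 (0.50, SE 0.126, adjusted p = 0.0427), and its second probe set differed by 0.40. Neither call held in 1 line alone, with arrays centred on their median, with the mean of all probe sets, with conditions pooled over time or with only the batches compared. E2F8 (0.67), E2F1 (0.62) and PRIM1 (0.52) did not pass. EGR1 (-1.49), DUSP4 (-1.45) and DUSP6 (-1.23), targets of MAP kinase signalling, were lower with U1026.

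Over the 20 comparisons members passed in 17 places, held by 8 genes, and the other 31 members passed in none. E2F2 passed in 7, POLD3 in 3 and E2F1 in 2. The E2F2 calls rest on 1 probe set. It had a mean of 8.06, and the other 2 probe sets of the gene were dimmer (means 4.37 and 4.27) and correlated with it by 0.22 and 0.40 over the 58 arrays. At 4 h with EGF their differences were -0.09 and -0.01 in HaCaT-EGFR and -0.22 and -0.41 in HaCaT-vector, and with LY294002 they were 0.03 and -0.28. With the mean of the 3 probe sets none of the 7 calls held.

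**Figure D5:**
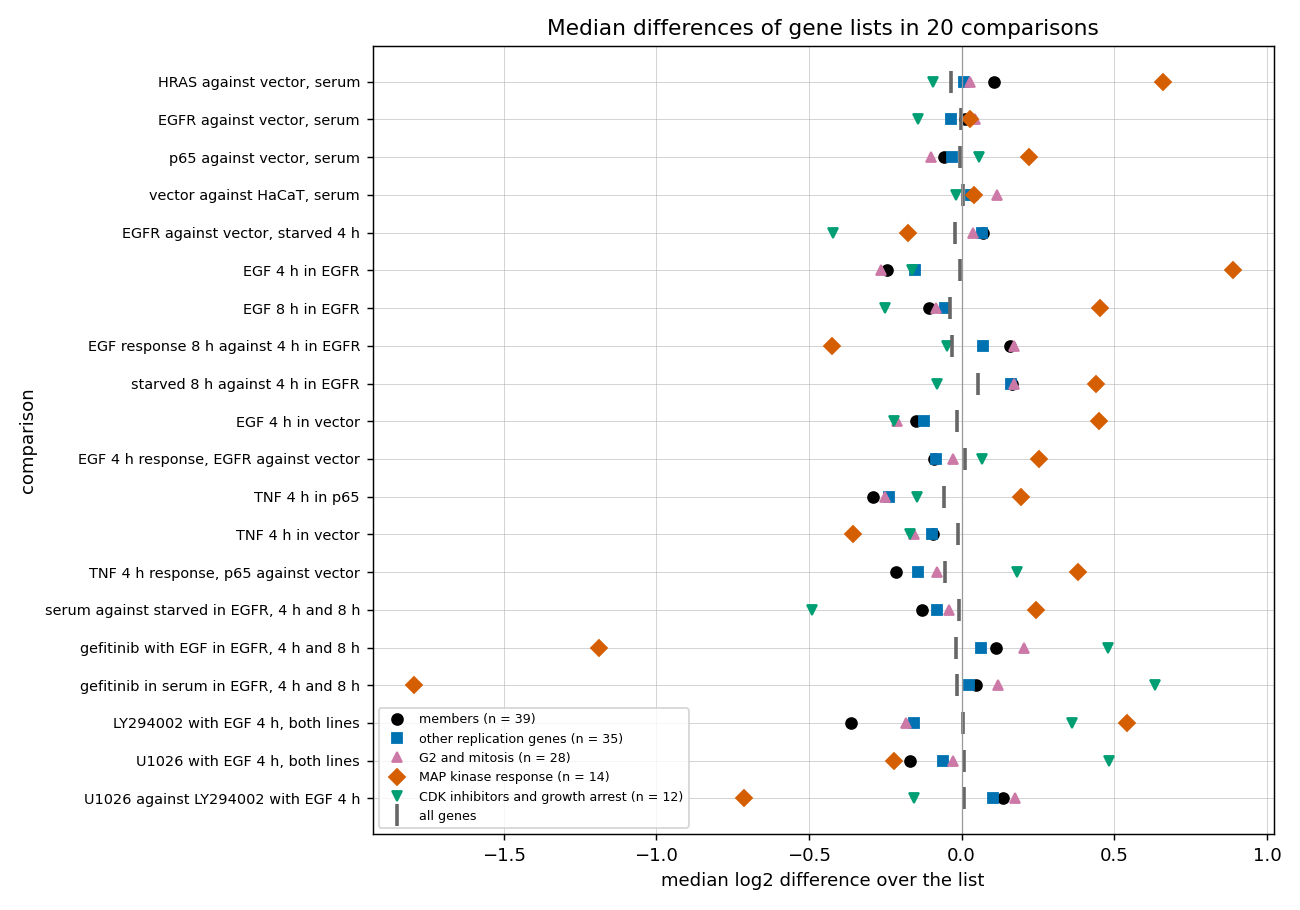
Median log2 difference (horizontal axis) in each of the 20 comparisons (vertical axis) for the 39 members, 35 other replication genes, 28 G2 and mitosis genes, 14 MAP kinase response genes, 12 CDK inhibitors and growth arrest genes, and all genes. For EGF at 4 h in HaCaT-EGFR the members stood at -0.25 and the G2 and mitosis genes at -0.26 while the MAP kinase response genes stood at 0.89, and with gefitinib and EGF the members stood at 0.11 and the MAP kinase response genes at -1.19.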

How the data were processed

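RNA of 58 arrays was summarized by the authors with fRMA on the log2 scale. They then fitted condition and processing date with limma and subtracted the date coefficients, and these log2 values were deposited. Dates were used here as the 6 labelled batches. The arrays hold 54675 probe sets. A single gene symbol was given for 41097 of them, more than 1 for 1801 and no symbol for 11777. Per gene the brightest single-symbol probe set, by mean over all arrays, was kept, which left 19775 genes. limma 3.58.1 in R 4.3.3 fitted 26 groups (line, medium, ligand, inhibitor and time) and 6 batches, with 28 residual degrees of freedom, and 20 comparisons were tested, each Benjamini-Hochberg adjusted over all genes at 0.05. The fit was tested on simulated data with independent noise on each array and 50 changed genes per size of change. Log2 changes of 0.5 were recovered in 8% for EGF at 8 h, 26% for LY294002 and 36% for serum against starved. The share was 38% for HRAS in serum and 64% for EGF at 4 h in HaCaT-EGFR. Changes of 1 were recovered in 78% to 96%, and 2.13% to 6.25% of calls were false. Small changes were thus often missed, most of all at 8 h. Array number limits the precision of every value, and no array values were identical (highest correlation 0.9977). Promoter sequence came from RefSeq (GRCh38.p14) in python 3.11.15.

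The members and the gene lists were chosen with earlier results of these data known. Named are the members that passed, by size of difference, then the 3 largest that did not, and up to 4 genes of each other list that passed. Values by array are given for the 10 members that passed most often (ties by size of difference) and for MCM2 and CDC6. In HaCaT-HRAS and HaCaT-EGFR against HaCaT-vector in serum, all 3 same-numbered pairs deviated together (r from 0.191 to 0.527 and from 0.216 to 0.529). The 6 pairs with unlike numbers ran from -0.412 to 0.247 and from -0.393 to 0.227, so the ranges overlapped. Both sets also use the same HaCaT-vector arrays, so these values do not establish the numbers as pairs. For RNA isolation and labelling, the GEO labels name Qiagen RNeasy and One-Cycle labelling, while the study's sample sheet names Trizol for batch 6 and Nugen amplification. Alternatives were another centring, gene filter, probe set rule, batch term, replicate block, choice of arrays and pooling over time.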

Additional observations from a re-analysis of the deposited data

Results flagged for a closer look

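In 65 checks of groups of 4 to 10 arrays, 3 found a single array far from the others, and chance alone gives about 1 in 20. PRIM1 read 8.13 on replicate 1 of batch 2 of HaCaT-p65 with TNF-α at 4 h, where the nearest of the other 3 arrays read 8.78. That array also had the highest actin 3′ minus 5′ difference of its group (5.70). E2F8 read 5.78 on a replicate 2 of batch 3 of the same group, with the nearest at 4.99. MCM2 read 8.47 on the batch 6 array of starved HaCaT-vector at 4 h, with the nearest at 8.42, a gap of small size within a narrow group. No difference between responses of lines or times passed for any member.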

How the results depend on the processing

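No called member changed direction in any alternative, but medians did change sign. Calls of single members no longer passed in 93 recomputations and held in 170. Given here are counts that changed by over 1.5 times and medians that shifted by over 0.159, the SD between arrays of the members' mean. The other 247 counts and 318 medians stayed within these limits. Main counts of members that passed were 3 for HRAS, 3 for EGFR in serum, 0 for p65 in serum, 2 for EGFR starved, 2 for EGF at 4 h in HaCaT-EGFR, 1 each for EGF in HaCaT-vector, TNF-α in HaCaT-p65, both gefitinib comparisons and LY294002, 2 for U1026 against LY294002 and 0 elsewhere. With conditions pooled over time, 1 passed for HRAS, 1 for p65 in serum, 2 for LY294002 and 0 for U1026 against LY294002, and EGF at 8 h has no group of its own. With no batch term, 4 passed for p65 in serum, 6 for EGFR starved, 4 for EGF at 4 h in HaCaT-EGFR, 1 for serum against starved, 4 for LY294002 and 3 for U1026. With arrays centred on their median, 0 passed for HRAS, TNF-α in HaCaT-p65, gefitinib with EGF and U1026 against LY294002, and 1 for EGF at 4 h in HaCaT-EGFR. Over genes with a mean of at least 5, 3 passed for p65 in serum and 2 for LY294002. With the mean of all probe sets, 1 passed for EGFR in serum, 1 for EGFR starved, and 0 for EGF at 4 h in either line, TNF-α in the p65 line, both gefitinib comparisons, LY294002 and U1026 against LY294002. With an intensity trend, 1 passed for p65 in serum. With only the batches compared, 6 passed for HRAS, 4 for p65 in serum, 1 for EGF at 4 h in the EGFR line, and 0 for TNF-α in the p65 line, both gefitinib comparisons and U1026 against LY294002. With a replicate block, 6 passed for HRAS, 3 for p65 in serum, 4 for EGF at 4 h in the EGFR line (MCM10, ORC6, POLD3 and E2F2), 2 for EGF in HaCaT-vector (POLA2 and E2F2), 3 for TNF-α in HaCaT-p65 (ORC1, TYMS and E2F2), 1 for serum against starved and 2 for gefitinib with EGF, and the median for EGFR starved was -0.15. Same-numbered pairs also deviated together in some other comparisons, which the main fit did not pair. For p65 in serum they had r from 0.0844 to 0.584, and for EGF at 8 h, with 2 arrays in each group, 0.109. For EGF at 4 h in HaCaT-EGFR, 4 of 5 same-numbered pairs were over 0.1 (-0.322 to 0.467). The 4 pairs with unlike numbers there had r from -0.584 to -0.429. These come from batches with 2 arrays in each group, whose deviations nearly oppose each other. Unlike pairs thus largely mirror the same-numbered ones and are not separate support for pairing. Against HaCaT in place of HaCaT-vector, 0 passed for EGFR in serum. In an alternative chosen after seeing the data, with TNF-α replicate 3 of HaCaT-p65 placed among the starved arrays, 0 passed. Without one array, counts ran from 1 to 6 for EGF at 4 h in HaCaT-EGFR, 1 to 1 for EGFR in serum, 0 to 2 for EGFR starved, 0 to 1 for gefitinib with EGF, HRAS, TNF-α in HaCaT-p65 and U1026, 0 to 2 for LY294002, and 0 to 0 for gefitinib in serum and U1026 against LY294002. Medians ran from -0.319 to 0.0648 for EGF at 8 h, -0.0467 to 0.260 for the EGF response at 8 h against 4 h, -0.0196 to 0.386 for starved cells at 8 h against 4 h, -0.0646 to 0.287 for gefitinib with EGF, -0.567 to -0.110 for LY294002, and -0.385 to 0.0379 for U1026. Smaller shifts took the median across 0 for gefitinib in serum (-0.0120 to 0.0924), EGFR in serum (-0.0195 to 0.0143), HaCaT-vector against HaCaT (-0.00497 to 0.0670), and the EGF response of HaCaT-EGFR against HaCaT-vector (-0.167 to 0.0111). Except where fewer arrays or genes entered, the cause was not tested.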
